A study of Mus musculus with 2 samples.

Results

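Thymic progenitors with at least 1 RNA molecule of the chemokine receptor gene Ccr9 (Ccr9+ cells) were compared with progenitors of the same sort in which none was counted (Ccr9- cells). The sort was the Flt3+ Ly6d- HSA- fraction of early thymic progenitors, which are the first cells of the T-cell pathway in the thymus. Cells were chosen by 3 counts in the deposited matrix: at least 3000 UMIs (unique molecular identifiers, each standing for 1 captured RNA molecule), UMIs of fewer than 3 of the 6 granule and myeloid genes Mpo, Elane, Prtn3, Ctsg, Ms4a3 and Cebpe, and then the Ccr9 UMIs themselves. Of the 1412 cells of the sort, 1300 met the first 2 conditions, 397 of them Ccr9+ and 903 Ccr9-. The whole pool held 8293 cell barcodes. The Ccr9 level and the levels of the 6 filter genes are therefore set by the choice of cells and are given as descriptions.

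CCR9 is the receptor of CCL25, a chemokine made by thymic epithelium, and together with CCR7 and the selectin ligand PSGL-1 it helps progenitors from the bone marrow to enter the thymus. Inside the thymus, Flt3 marks the earliest progenitors, which can still give rise to myeloid, dendritic and innate lymphoid cells. Notch signals there switch on T-lineage regulators such as Tcf7 and Gata3 while stem and progenitor genes are turned down.

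The cells came from the thymus of C57BL/6 mice of the genotype Bcl11byfp/yfp, in which a yellow fluorescent protein reports Bcl11b, a gene switched on at T-lineage commitment. All cells compared were Lin- and 7AAD- (no lineage markers, dead cells gated out), Kit+ CD25- Bcl11b-, and then Flt3+ Ly6d- HSA-, HSA being the CD24 antigen. A second sort, Flt3+ HSA+ with the same preceding gates and no gate on Ly6d, served as a set of cells that the choice of members did not use, and Flt3- Ly6d- HSA-, Flt3- Ly6d+ and a broader Lin- 7AAD- Kit+ control gave levels outside the Flt3+ cells. The 5 sorts carried different hashtag antibodies and were run as 1 pooled library, and the sources used here do not give the number, age or sex of the mice.

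There was 1 sort of each kind. Cells of 1 sort are not replicates, so no test was run and no p-value is given. Intervals in parentheses are 95% intervals that cover counting error only, and they do not measure how far another sort of the same kind would differ. Ccr9+ cells held 6170730 UMIs in all, with a median of 14215 UMIs and 3601 genes per cell, and Ccr9- cells held 15078504, with medians of 15373 and 3723. Mitochondrial UMIs made up a median of 4.18% and 4.26%, and the assigned hashtag a median of 99.3% and 99.4% of hashtag counts. Cells in which 5 or more of 3000 UMIs came from genes of G2 and M phase made up 19.9% (16.1 to 24.2) of Ccr9+ and 27.6% (24.7 to 30.6) of Ccr9- cells.

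RNA of the gated markers was checked in both classes. Flt3 stood at 119 and 88.4 CPM (UMIs per 1000000 UMIs of the class) in Ccr9+ and Ccr9- cells, Kit at 67.4 and 69.1, and Cd24a, which encodes HSA, at 85.2 and 85.1, against 141 CPM in the Flt3+ HSA+ sort. Bcl11b had 3 and 4 UMIs in all, and Il2ra, which encodes CD25, had 2 and 10. Ly6d stood at 24.5 and 17.7 CPM, against 437 CPM in the Flt3- Ly6d+ sort.

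GENCODE places Ccr9 on the plus strand at chr9:123678439-123784330 in mm10. The RefSeq start used for Ccr9 below lies within that span and not at its first base, so its window is inside the GENCODE gene. To show what stands in front of it and of the 3 named genes with the largest ratios, Nucb2, Gria2 and Hlx, the 250 bases before each RefSeq start are printed 5′ to 3′ along the transcript, from GRCm38.p6. The windows are chr9:123766961-123767210 on the plus strand for Ccr9, chr7:116504119-116504368 on the plus strand for Nucb2, chr3:80802836-80803085 on the minus strand for Gria2 and chr1:184732494-184732743 on the minus strand for Hlx. Capitals mark E-boxes, the motif CANNTG that E proteins bind, which reads the same on both strands.
Ccr9: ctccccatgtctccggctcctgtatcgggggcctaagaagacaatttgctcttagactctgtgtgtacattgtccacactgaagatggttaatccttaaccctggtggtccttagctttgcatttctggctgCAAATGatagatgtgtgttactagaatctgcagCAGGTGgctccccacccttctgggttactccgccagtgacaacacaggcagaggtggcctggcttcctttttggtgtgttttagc
Nucb2: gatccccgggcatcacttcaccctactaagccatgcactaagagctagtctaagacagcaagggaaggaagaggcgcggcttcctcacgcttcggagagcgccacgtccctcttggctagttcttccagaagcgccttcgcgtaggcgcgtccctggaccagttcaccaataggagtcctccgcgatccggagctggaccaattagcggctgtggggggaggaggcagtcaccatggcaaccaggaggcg
Gria2: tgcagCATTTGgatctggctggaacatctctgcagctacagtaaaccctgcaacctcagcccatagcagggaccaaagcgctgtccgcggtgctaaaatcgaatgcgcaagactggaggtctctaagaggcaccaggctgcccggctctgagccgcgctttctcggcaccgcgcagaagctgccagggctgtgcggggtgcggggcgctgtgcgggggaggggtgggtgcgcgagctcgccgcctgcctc
Hlx: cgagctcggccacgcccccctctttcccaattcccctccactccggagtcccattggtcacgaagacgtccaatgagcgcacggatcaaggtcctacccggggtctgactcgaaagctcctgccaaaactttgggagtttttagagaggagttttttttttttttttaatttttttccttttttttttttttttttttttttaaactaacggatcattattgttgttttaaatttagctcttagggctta
The Ccr9 window held 2 E-boxes, of which 1 had the form CAGGTG, searched on both strands, the Gria2 window held 1 E-box, and the windows of Nucb2 and Hlx held 0. The motif TGGGAA, which the Notch effector RBPJ binds and which was also searched on both strands, was found once, in the window of Hlx. Among 32851 RefSeq promoters of the same length, 66.2% held an E-box, 17.2% the CAGGTG form, and 21.6% the RBPJ motif. A match in these letters describes the sequence and is not a site of binding.

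Ccr9 RNA was found in 30.5% (28.04 to 33.1) of the 1300 cells, at 41.3 CPM (38.6 to 44.1) over all of them. After each cell was thinned at random to 3000 UMIs the share was 10.2% (8.64 to 12). Most Ccr9+ cells held few molecules: 190 had 1 UMI, 89 had 2, 57 had 3 and 61 had 4 or more, with 13 as the highest number. If the 877 Ccr9 UMIs had been spread over the cells at 1 common rate per UMI, 686 cells would have been left without any, and 903 were. A Ccr9- cell is thus a cell without a counted Ccr9 molecule, and cells with low Ccr9 RNA stand in both classes.

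The share of Ccr9+ cells was higher here than in the other sorts under the same cell filter. It was 14.8% (12.7 to 17.0) of 1111 Flt3+ HSA+ cells, which were deeper (a median of 20786 UMIs against 14946), 4.23% (3.08 to 5.65) of 1017 Flt3- Ly6d- HSA- cells and 9.08% (8.09 to 10.1) of 3105 control cells. It was lowest in Flt3- Ly6d+ cells, at 2.14% (1.249 to 3.4) of 796 cells with a median of 11428 UMIs, or 0.628% (0.204 to 1.46) after thinning. That share was taken as the background that free RNA in the droplets can give, and the shares in the Flt3+ Ly6d- HSA- sort, 30.5% and 10.2% after thinning, lay above it.

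Ccr9 RNA was not evenly spread over depth. Across 10 strata of 130 cells ordered by total UMIs, the share of Ccr9+ cells was 32.3% in the shallowest (median 7569 UMIs), 37.7% in the sixth and 20.0% in the deepest (median 28692). The Ccr9 level went from 119 CPM in the shallowest stratum to 11.7 in the deepest. Deep cells therefore held less Ccr9 RNA per UMI although each gave more chances to see it. For this reason every ratio below was taken within the 10 strata and combined.

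**Figure D1:**
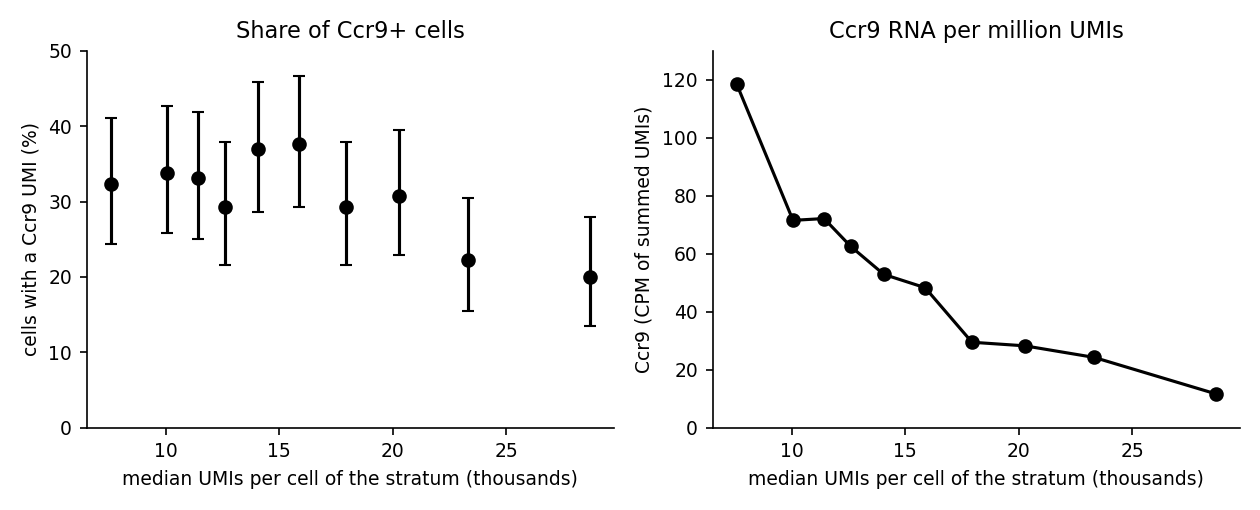
Share of cells with at least 1 Ccr9 UMI (left, %, with exact binomial 95% intervals) and Ccr9 level (right, CPM of summed UMIs) in 10 strata of 130 Flt3+ Ly6d- HSA- cells, each placed at its median UMIs per cell. The share lies between 29.2% and 37.7% in the 8 shallower strata and is 20.0% in the deepest, while the level falls from 119 to 11.7 CPM.

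The cell filter bore on Ccr9 as well. Among cells with 0 granule genes detected, 127 of 246 (51.6%) were Ccr9+, against 221 of 817 (27.1%) with 1 and 49 of 237 (20.7%) with 2. Just outside the filter, 3 of 37 cells (8.11%) with 3 granule genes detected were Ccr9+, and 5 of all 105 cells (4.76%) with 3 or more. Median depth moved the other way, from 12672 UMIs with 0 granule genes to 18196 with 2 and 20328 with 3. The 7 cells under 3000 UMIs held 0 Ccr9 UMIs.

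Of 7591 genes measured (at least 10 CPM in either class and a UMI in both, Ccr9 left out), 43 were at least 1.5-fold higher in Ccr9+ cells and 21 at least 1.5-fold lower, their level in the higher class being 10 CPM or more and their UMIs being seen in 5% or more of its cells. These are 0.566% and 0.277% of the genes measured. The median log2 ratio over all measured genes was 0.01. The counting interval left out 1 for all 43 and all 21, which follows in part from choosing the largest ratios. With edgeR TMM factors or DESeq2 size factors the split was 30 higher and 27 lower, which took in 30 of the 43 and all 21. Nearly all measured genes thus lay within 1.5-fold between the classes, and most of those outside had low levels.

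**Figure D2:**
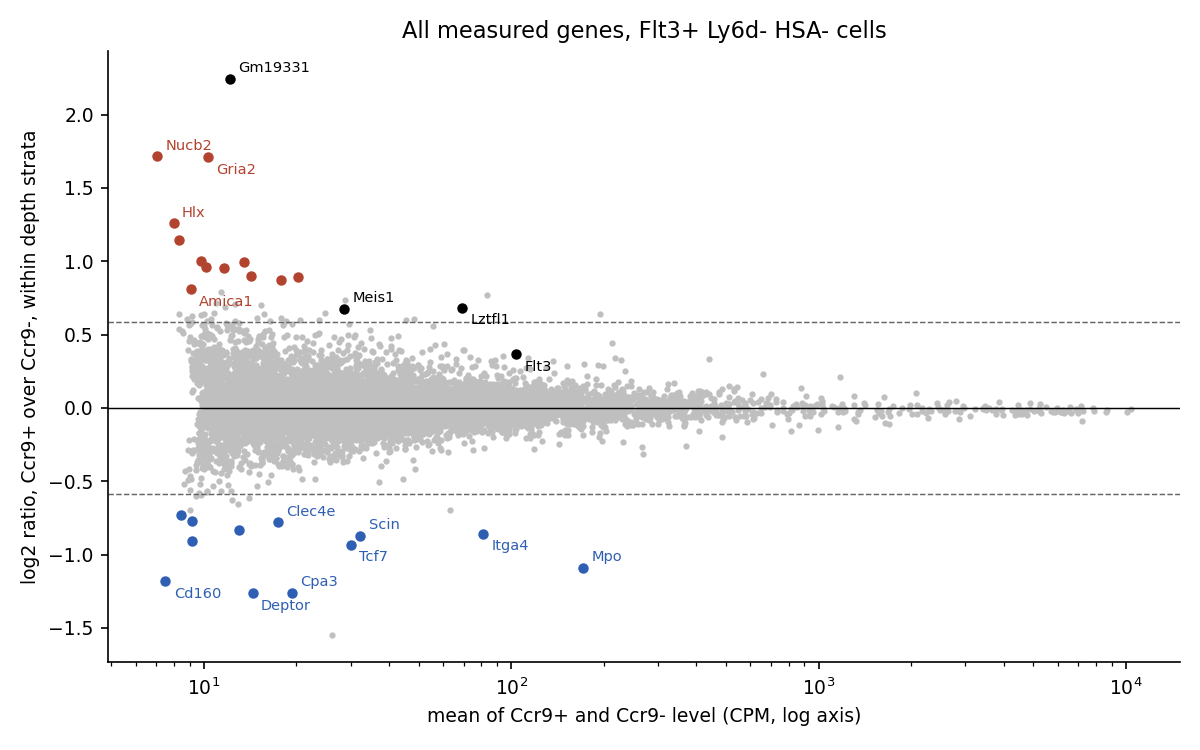
Log2 ratio of Ccr9+ over Ccr9- cells, combined over 10 depth strata, against the mean level of the 2 classes (CPM, log axis) for the genes measured. Red and blue points are named genes on the higher and lower side, black points are 4 genes described in the text, and dashed lines mark 1.5-fold. Most points lie between the dashed lines, and the points outside them are mostly under 100 CPM.

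The gene with the largest ratio was Gm19331, a long intergenic noncoding RNA, named here after its values were seen since the naming rule leaves predicted genes out. It stood at 20.3 CPM (16.9 to 24.1) in Ccr9+ cells and 3.98 (3.04 to 5.12) in Ccr9- cells, 4.74-fold higher (3.48 to 6.46). After thinning, 9.07% (6.43 to 12.3) of Ccr9+ cells held a UMI, against 0.997% (0.457 to 1.88). GENCODE places it on the plus strand at chr12:115386846-115397688 in mm10, among variable segments of the immunoglobulin heavy chain locus, and its start overlaps Ighv1-62-1 on the minus strand. The other lncRNA annotated within 200 kb on either side, Gm30948, did not reach the level needed to be measured. The Ighv segments were not analysed here.

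Of the named genes on the higher side, Gria2, Ly96, Skap1 and Amica1 encode receptor subunits, an adaptor or an adhesion molecule. Gria2, a subunit of AMPA-type glutamate receptors known mainly from neurons, stood at 15.9 CPM (12.9 to 19.4) in Ccr9+ cells and 4.78 (3.74 to 6.01) in Ccr9- cells, 3.27-fold higher (2.40 to 4.46). Ly96, the MD-2 partner of the endotoxin receptor TLR4, stood at 11.5 and 5.11 CPM, 2.22-fold higher (1.60 to 3.07). Skap1, an adaptor that links antigen receptor signals to integrins, stood at 26.1 and 14.4 CPM, 1.86-fold higher (1.51 to 2.28). Amica1, an adhesion molecule of the JAM family, stood at 11.7 and 6.43 CPM, 1.75-fold higher (1.29 to 2.37). All 4 were found in more Ccr9+ than Ccr9- cells after thinning, the widest gap being that of Gria2, at 5.04% against 1.88% of cells.

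Hlx and Glis3, also named on the higher side, encode transcription factors. Hlx, a homeobox factor of blood cells, stood at 11.5 CPM (8.99 to 14.5) in Ccr9+ cells and 4.44 (3.44 to 5.64) in Ccr9- cells, 2.40-fold higher (1.73 to 3.32). Glis3, a Krüppel-like zinc finger factor, stood at 18.3 and 8.75 CPM, 1.99-fold higher (1.55 to 2.57), and was found after thinning in 8.06% of Ccr9+ and 1.66% of Ccr9- cells. The homeodomain genes Meis1 and Hopx passed the size rule outside the 12 leading names, Hopx being chosen for naming after its values were seen. Meis1, a stem and progenitor regulator, stood at 35.0 and 22.0 CPM, 1.60-fold higher (1.34 to 1.90), and Hopx, a homeodomain protein that does not bind DNA itself, at 36.0 and 21.4 CPM, 1.67-fold higher (1.40 to 1.98). The 2 families did not move as a whole: the homeobox gene Hhex stood at a ratio of 0.974, and the zinc finger genes Gata3 and Gfi1b at 0.912 and 0.690.

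The remaining named genes on the higher side encode enzymes and RNA or calcium binding proteins. Nucb2, a calcium-binding nucleobindin, stood at 10.7 CPM (8.27 to 13.6) in Ccr9+ cells and 3.38 (2.52 to 4.45) in Ccr9- cells, 3.29-fold higher (2.28 to 4.74). Acot1, an acyl-CoA thioesterase, was 2.0-fold higher (1.48 to 2.69). Pld4, an endolysosomal member of the phospholipase D family that plasmacytoid dendritic cells express strongly, was 1.95-fold higher (1.46 to 2.61). Ddx4, an RNA helicase known from germ cells, was 1.94-fold higher (1.48 to 2.55), and Gcnt2, a glycosyltransferase that branches cell surface glycans, 1.86-fold higher (1.46 to 2.38). Levels of these 4 genes in Ccr9+ cells lay between 13.1 and 18.5 CPM, so each rests on 81 to 114 UMIs there.

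The chemokine genes Ccl3 and Ccl4, which encode the inflammatory chemokines MIP-1 alpha and MIP-1 beta, were among the more abundant genes past the size rule. Ccl4 stood at 248 CPM in Ccr9+ and 139 in Ccr9- cells, 1.56-fold higher (1.46 to 1.66), and Ccl3 at 111 and 55.6 CPM, 1.71-fold higher (1.54 to 1.89). Both were chosen for naming after their values were seen.

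On the lower side, the named genes include Tcf7 and Itga4. Tcf7, the Notch-induced factor TCF-1 that starts the T-cell programme, stood at 22.2 CPM (18.6 to 26.2) in Ccr9+ cells and 37.9 (34.9 to 41.2) in Ccr9- cells, 1.91-fold lower (1.58 to 2.30). Itga4, the alpha 4 integrin subunit that pairs with Itgb1 or Itgb7, stood at 58.5 CPM (52.6 to 64.9) and 104 (98.5 to 109), 1.81-fold lower (1.61 to 2.03). A Tcf7 UMI was found after thinning in 7.81% (5.37 to 10.9) of Ccr9+ and 12.1% (10.0 to 14.4) of Ccr9- cells, and an Itga4 UMI in 16.9% and 25.1%.

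Cpa3, Cd160, Mpo and Clec4e, also on the lower side, are known from several blood lineages, whose marker lists are given further on. Cpa3, the mast cell carboxypeptidase A, which immature blood progenitors make too, stood at 12.2 CPM (9.56 to 15.2) in Ccr9+ cells and 26.5 (24.0 to 29.3) in Ccr9- cells, 2.39-fold lower (1.87 to 3.07). Cd160, a receptor of NK and T cells, stood at 4.70 and 10.3 CPM, 2.27-fold lower (1.52 to 3.37). Mpo, the myeloperoxidase of granulocyte precursors and 1 of the 6 filter genes, stood at 111 and 232 CPM, 2.13-fold lower (1.96 to 2.31). Clec4e, the myeloid lectin receptor Mincle, stood at 12.8 and 22.0 CPM, 1.72-fold lower (1.34 to 2.20). Clec12a, an inhibitory lectin receptor of myeloid cells chosen for naming after its values were seen, stood at 49.1 and 77.7 CPM, 1.62-fold lower (1.42 to 1.84).

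The other named genes on the lower side have mixed roles. Deptor, an inhibitory partner of mTOR, stood at 8.75 CPM in Ccr9+ and 20.0 in Ccr9- cells, 2.40-fold lower (1.79 to 3.21). Scin, the actin-severing protein scinderin, stood at 22.4 and 42.2 CPM, 1.83-fold lower (1.52 to 2.20). Nr4a2, an orphan nuclear receptor, was 1.88-fold lower (1.33 to 2.65), Chdh, the choline dehydrogenase of mitochondria, 1.78-fold lower (1.34 to 2.37), Chn2, a GTPase-activating protein for Rac, 1.71-fold lower (1.21 to 2.41), and Fbxw8, an F-box protein, 1.66-fold lower (1.17 to 2.34). Levels of these last 4 in Ccr9- cells lay between 10.4 and 16.5 CPM.

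Another 2 genes passed the size rule but rest on few cells. The 10 richest cells held 62.1% of the Hbb-bt UMIs of Ccr9- cells, where this adult beta-globin gene was 2.92-fold (2.29 to 3.72) above Ccr9+ cells. They held 65.3% of the Cd74 UMIs of Ccr9+ cells, where Cd74, the invariant chain of MHC class II, was 1.55-fold (1.16 to 2.09) above Ccr9- cells. Both were left out of the named genes for this reason.

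The same contrast was then taken in the Flt3+ HSA+ sort, whose 164 Ccr9+ and 947 Ccr9- cells the choice of members did not use, although they share the library. Of the 43 genes on the higher side, 25 were measured there, and 17 of these (68.0%) were at least 25% higher in Ccr9+ cells and 1, Cd74, at least 20% lower (the inverse step). Of the 21 on the lower side, 19 were measured there, and 13 (68.4%) were at least 20% lower and 0 at least 25% higher. The filter gene Mpo is counted among these 21, 19 and 13, and among the 15 given below. The cell filter acts on its level in both sorts, so its place in these counts is not independent of the choice of cells. Among all 7629 genes measured in that sort, 6.24% were at least 25% higher and 4.48% at least 20% lower. A gene is measured there in part because it is high in that sort's own Ccr9+ cells, so counts over all are given too: 30 of 43 and 15 of 21 lay past these steps in their direction at any level. Of all 7591 genes measured in the Flt3+ Ly6d- HSA- sort, 5.57% and 4.48% did so at any level, and of the 2011 whose level in the higher class was under 20 CPM, as it was for 28 of the 43 and 12 of the 21, 12.5% and 9.6% did. On the other side of 1 among the genes measured there lay Cd74, Ccl3, Gngt2 and Specc1 of the higher side and Ltbr of the lower side, at ratios of 0.435, 0.982, 0.914, 0.954 and 1.03, the last 3 genes being named after their values were seen.

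Among single genes, Gm19331 was 9.69-fold higher (5.49 to 17.1) in the Ccr9+ cells of the Flt3+ HSA+ sort, at 8.87 CPM against 0.903. Gria2 was 4.09-fold higher (2.45 to 6.84), Nucb2 3.14-fold (1.68 to 5.85), Ddx4 3.07-fold (2.06 to 4.59), Hlx 2.11-fold (1.34 to 3.33), Hopx 2.09-fold (1.62 to 2.70) and Meis1 1.82-fold (1.47 to 2.26). For Ly96, Acot1, Glis3, Pld4, Gcnt2 and Amica1 the interval in that sort took in 1. On the lower side Cpa3 was 3.53-fold lower (2.53 to 4.91), Cd160 2.02-fold (1.39 to 2.96), Deptor 1.82-fold (1.37 to 2.43), Scin 1.82-fold (1.502 to 2.2), Nr4a2 1.78-fold (1.103 to 2.88), Chn2 1.60-fold (1.08 to 2.37), Tcf7 1.46-fold (1.19 to 1.78), Itga4 1.43-fold (1.26 to 1.63), Chdh 1.42-fold (1.03 to 1.97), Clec4e 1.38-fold (1.06 to 1.78) and Fbxw8 1.31-fold (0.868 to 1.98). Nr4a2 did not reach the level to be measured there, and Mpo, on which the cell filter acts in both sorts, was 1.40-fold lower. Ccl4 was 1.5-fold higher (1.34 to 1.67) there, while Ccl3 stood at a ratio of 0.98 (0.807 to 1.19).

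**Figure D3:**
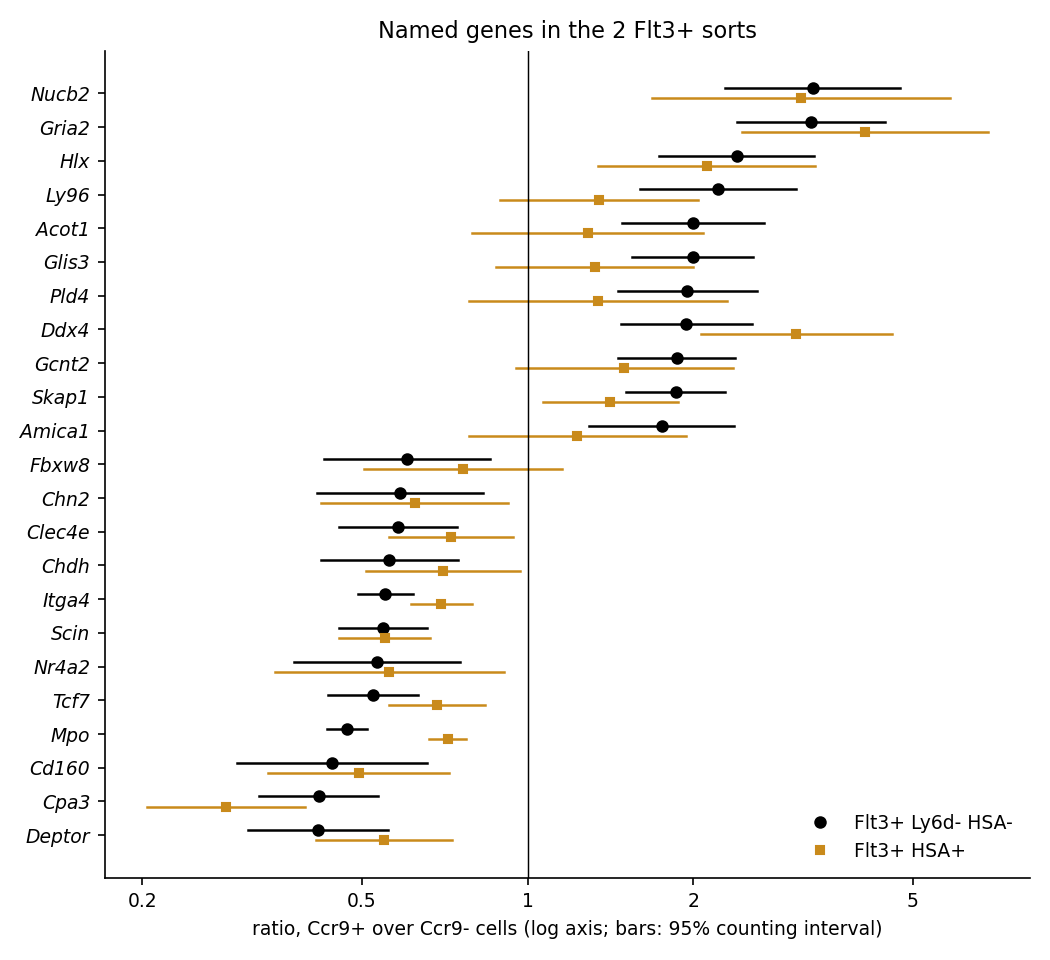
Ratio of Ccr9+ over Ccr9- cells (log axis) with 95% counting intervals for named genes, for the Flt3+ Ly6d- HSA- sort (black circles), which chose the genes, and the Flt3+ HSA+ sort (orange squares). Every square lies on the same side of 1 as its circle, and the intervals of 7 squares take in 1.

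Levels in the other sorts are given beside these genes without a ratio, since the Ccr9- cells would be shared between comparisons. Tcf7 stood at 22.2 CPM in Ccr9+ cells, 37.9 in Ccr9- cells, 44.6 in the whole Flt3+ HSA+ sort, 156 in the Flt3- Ly6d- HSA- sort and 214 in the Flt3- Ly6d+ sort. Cpa3 went in the same order through 12.2, 26.5, 34.8, 220 and 219 CPM, and Itga4 through 58.5, 104, 113, 224 and 326. All 3 were lowest in the Ccr9+ cells and highest outside the Flt3+ sorts. On the higher side, Gm19331 went in the same order through 20.3, 3.98, 2.03, 0.380 and 0.297 CPM, Gria2 through 15.9, 4.78, 2.67, 1.71 and 0.198, and Meis1 through 35.0, 22.0, 21.3, 15.3 and 10.2. These 3 were highest in the Ccr9+ cells and lowest in the Flt3- Ly6d+ sort. The step from Ccr9+ to Ccr9- cells follows from how these genes were chosen. They are examples, and how the other named genes or all measured genes run over the sorts was not counted, so these orders have no background.

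**Figure D4:**
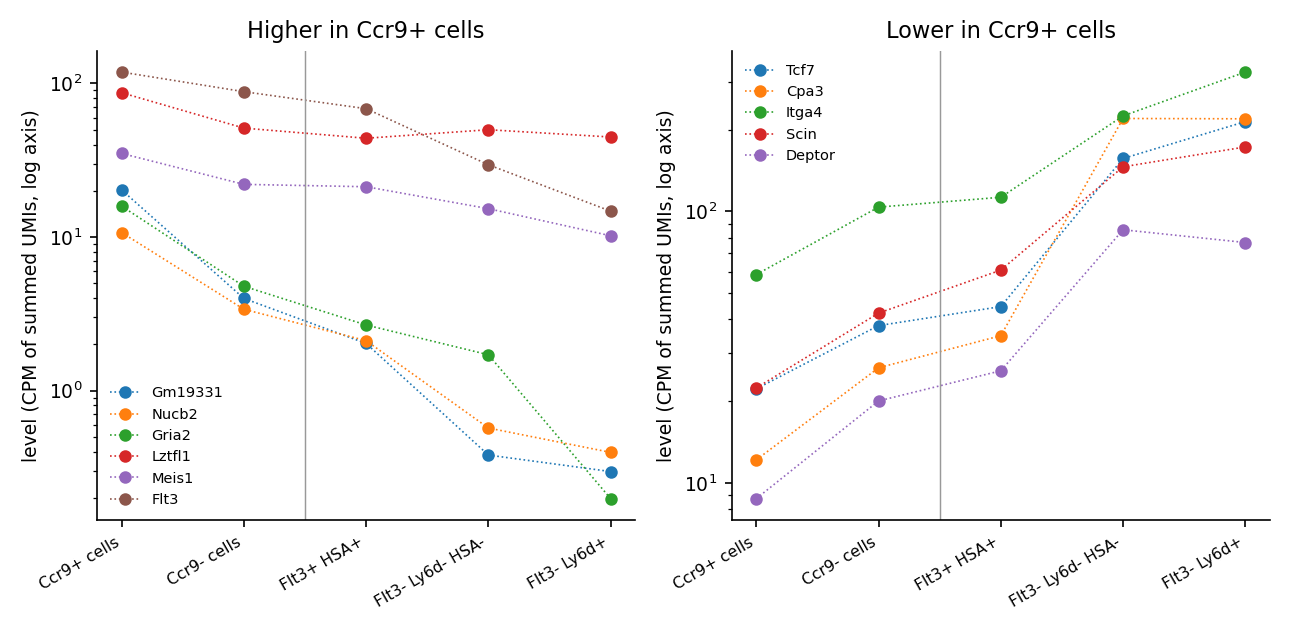
Level (CPM of summed UMIs, log axis) of 6 genes higher (left) and 5 genes lower (right) in Ccr9+ cells, in the Ccr9+ and Ccr9- cells of the Flt3+ Ly6d- HSA- sort and, right of the grey line, in all filtered cells of 3 other sorts. The 5 genes on the right are lowest in Ccr9+ cells and highest in the Flt3- sorts, and 5 of the 6 on the left fall toward the Flt3- sorts, Lztfl1 being level outside the Ccr9+ cells. The genes shown are examples, and their step from Ccr9+ to Ccr9- cells follows from how they were chosen.

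For 10 of the 24 named genes, the filter gene Mpo among them, the difference grew at each step in the number of Ccr9 UMIs in the cell, and for 3 it shrank at each step. The share of all measured genes with such an order was not taken, so these counts have no background. The named genes were also chosen by the ratio of all Ccr9+ cells, of which these classes are parts. Against cells with 0 Ccr9 UMIs, Gm19331 was 3.52-fold higher in the 190 cells with 1 UMI, 3.92-fold in the 146 with 2 to 3 and 10.5-fold (6.93 to 16) in the 61 with 4 or more. Hlx was 1.94-, 2.06- and 4.21-fold higher in the same order. Cpa3 was 1.77-, 3.03- and 5.42-fold lower, and Itga4 1.63-, 1.77- and 3.16-fold lower. Tcf7 was 1.48-fold lower with 1 UMI and 2.56- and 2.63-fold lower with more. Deptor had no such order, at 2.83-, 2.12- and 2.03-fold lower, and neither had Ly96, at 2.13-, 2.36- and 2.11-fold higher, nor Ly6a, a surface antigen of stem cells and lymphoid progenitors, at 1.31-, 1.23- and 1.86-fold higher. Cells with 4 or more Ccr9 UMIs were shallower, with a median of 12542 UMIs against 15500 with 1, and only 5 Cpa3 UMIs and 29 Itga4 UMIs were counted in them.

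**Figure D5:**
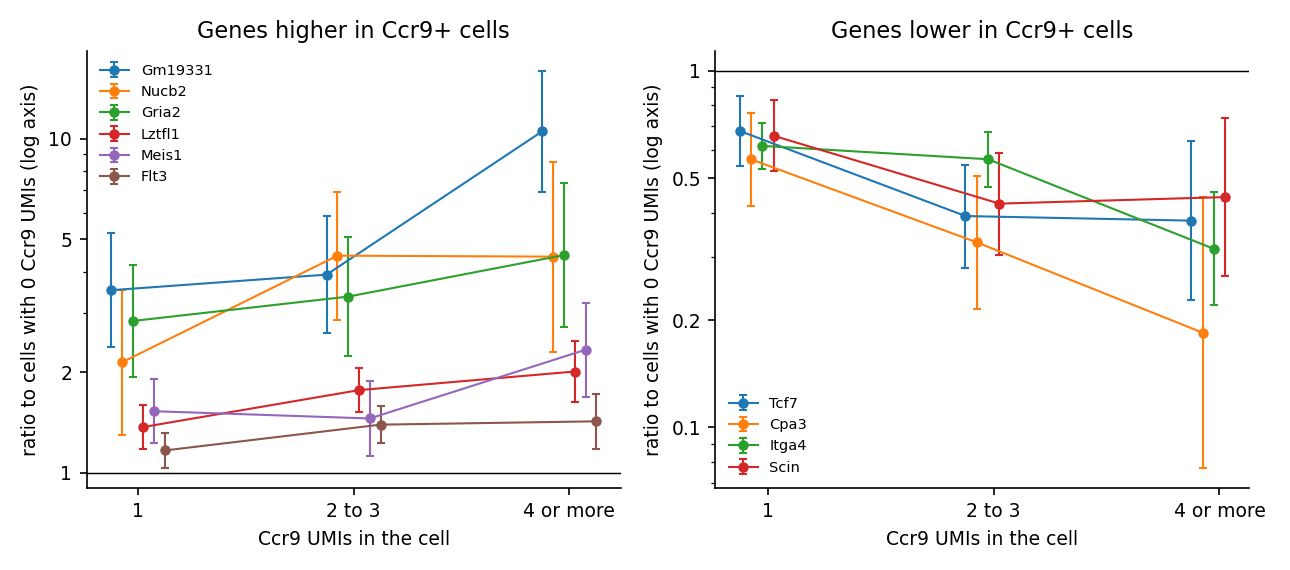
Ratio to cells with 0 Ccr9 UMIs (log axis), combined over depth strata, for cells with 1, 2 to 3, and 4 or more Ccr9 UMIs, with 95% counting intervals, for 6 genes on the higher side (left) and 4 on the lower side (right). Gm19331 reaches 10.5-fold at 4 or more UMIs, and Cpa3 and Itga4 lie lowest there.

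Several ratios were also present at each depth. When the 1300 cells were divided by total UMIs into 3 groups (up to 12417, 12427 to 18261, and 18304 or more UMIs), with 141, 147 and 109 Ccr9+ cells, Gm19331 was 4.37-, 6.31- and 4.0-fold higher. Gria2 was 3.0-, 2.52- and 4.15-fold higher, Tcf7 1.5-, 2.45- and 1.95-fold lower, and Itga4 1.86-, 1.70- and 1.88-fold lower. Other genes were uneven over depth: Ddx4 was 5.93-fold higher in the shallowest and 1.53-fold higher in the deepest group, and the ratio of Chn2 was 1.0 (0.593 to 1.69) in the shallowest and 0.268 (0.130 to 0.551) in the deepest.

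The cell filter and the depth of the cells touched some of these genes. Among the 246 cells with no granule gene detected, of which 127 were Ccr9+, Cd160 and Chn2 had ratios above 1 (1.27 and 1.15), and when cells were thinned to 3000 UMIs and classed by the thinned Ccr9 count, Ly96 and Hopx had ratios under 1 (0.774 and 0.954) and Cd160 stood at 1.30. Of list genes described further on, Itgb2, Thy1 and Fcer1g changed side with thinned classes, and Thy1, Gfi1b, Fcer1g and Klrd1 did so in the cells with no granule gene detected. Over all 18 other ways of choosing, weighting and scaling the cells, the ratio stayed between 2.45 and 9.86 for Gm19331, 1.88 and 3.74 for Gria2, and 1.34 and 1.73 for Meis1. It stayed between 0.389 and 0.680 for Tcf7, 0.493 and 0.595 for Itga4, 0.283 and 0.514 for Cpa3, and 0.388 and 0.593 for Scin. Not every alternative could move these ratios: changes of the low-value filter leave them as they are.

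The gene beside Ccr9 on the chromosome differed too. Lztfl1, a regulator of ciliary protein traffic, lies on the minus strand at chr9:123694416-123717697 within the annotated span of Ccr9. It stood at 87.0 CPM (79.8 to 94.7) in Ccr9+ cells and 51.2 (47.7 to 54.9) in Ccr9- cells, 1.61-fold higher (1.44 to 1.79), and 1.60-fold higher (1.37 to 1.87) in the Flt3+ HSA+ sort. Its ratio was 1.37, 1.77 and 2.01 in cells with 1, 2 to 3, and 4 or more Ccr9 UMIs. The sources used here do not say whether the authors' counting used strand. Without strand, reads from Lztfl1 and from the introns of Ccr9 cannot be told apart. Fyco1, the next gene beyond Ccr9, had a ratio of 1.255 (0.937 to 1.68), and on the other side Sacm1l, Limd1 and Lars2 had ratios of 1.0, 1.0 and 0.893. The chemokine receptor genes Cxcr6 and Xcr1 of the same cluster held 0 UMIs in both classes.

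For lists of genes, members measured at 10 CPM or more were counted when they were at least 25% higher or at least 20% lower in Ccr9+ cells (the same step up and down), which 4.47% and 1.95% of all measured genes were. These shares are the background for the counts that follow. Of 12 measured genes of thymus homing and adhesion, 1 was higher (Itgb2, the beta 2 integrin subunit, 1.33-fold, 1.06 to 1.68) and 1 lower (Itga4), and the median log2 ratio was -0.00. Selplg, which encodes PSGL-1, stood at 239 and 225 CPM, and the partner subunits Itgb1 and Itgb7 had ratios of 1.02 and 0.884. Ccr7 was under the level to be measured, at 8.26 CPM (51 UMIs) in Ccr9+ and 4.71 (71 UMIs) in Ccr9- cells, a ratio of 1.72 (1.19 to 2.47). Cxcr4, the receptor of CXCL12, had a ratio of 0.885 (0.708 to 1.10).

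Of 15 measured genes of lymphoid priming, 1 lay past this step, Ly6a at 253 and 173 CPM and 1.36-fold higher (1.28 to 1.45). The median log2 ratio was 0.13, against 0.01 over all measured genes. All 15 had ratios above 1, but the share of all measured genes above 1 was not taken, here or in the groups of cells that follow. Above 1 were 12 of the 15 in the shallowest of the 3 depth groups. In cells with 1 Ccr9 UMI, and in those with 4 or more, 13 were. Dntt, the template-independent polymerase of antigen receptor joining, stood at 1294 and 1062 CPM, a ratio of 1.16 (1.13 to 1.19). Il7r, the receptor of interleukin 7, stood at 21.1 and 18.0 CPM, a ratio of 1.15 (0.933 to 1.42). Rag1, a subunit of the recombinase, was near the floor, with 19 and 17 UMIs. In the Flt3+ HSA+ sort 4 of the 15 measured genes of this list were higher (Il7r, Ly6a, Dntt and Rag2, at ratios of 1.71, 1.48, 1.31 and 1.28), with a median log2 ratio of 0.25.

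Stem and progenitor regulators had 4 of 19 measured genes higher (Meis1, Bcl11a, Egr1 and the endothelial and stem cell receptor Adgrl4) and 1 lower (Gfi1b), with a median log2 ratio of 0.12. Adgrl4 stood at 69.5 and 51.3 CPM, 1.36-fold higher (1.2 to 1.53), and Bcl11a, a factor needed for early lymphoid cells, at 247 and 188 CPM, 1.26-fold higher (1.19 to 1.35). Hhex, Mef2c and Spi1 stood close to level, at ratios of 0.974, 1.06 and 0.973. Of 15 cytokine and growth factor receptors, Flt3, at 1.29-fold (1.18 to 1.41), and Il18r1, at 1.49-fold (1.14 to 1.95), were higher, and Kit had a ratio of 0.939 (0.838 to 1.05). Flt3 was 1.46-fold higher (1.29 to 1.65) in the Ccr9+ cells of the Flt3+ HSA+ sort as well.

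Other T-lineage genes stood closer to level than Tcf7. Of 11 measured T-lineage regulators, Tcf7 was lower and Ets1, a factor of lymphoid cells, higher at 1.42-fold (1.18 to 1.72), with a median log2 ratio of -0.08. Gata3, which acts beside Tcf7, stood at 18.3 and 19.4 CPM, a ratio of 0.912 (0.732 to 1.14), and at a ratio of 0.649 (0.487 to 0.864) in the Flt3+ HSA+ sort. Of 5 measured T-cell receptor and signalling components, 1 was higher, Thy1, at 17.5 and 12.3 CPM and 1.53-fold (1.2 to 1.94), but Thy1 stood at a ratio of 0.661 (0.290 to 1.51) in cells with 4 or more Ccr9 UMIs and at 1.03 in the Flt3+ HSA+ sort. Of 6 measured Notch receptors and targets, Notch2 was 1.26-fold lower (1.05 to 1.52) and none was higher. Notch1 had a ratio of 1.09 (1.01 to 1.19) and its target Hes1 one of 1.03 (0.941 to 1.12). None of the 6 measured E protein and Id genes lay past the step, and their median log2 ratio was 0.12.

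Markers of plasmacytoid dendritic cells had 4 of 9 measured genes higher and 0 lower, with a median log2 ratio of 0.20. These were Pld4, Runx2 (1.35-fold, 1.19 to 1.52), Irf7 (1.34-fold, 1.15 to 1.56) and Ly6d (1.34-fold, 1.09 to 1.64), of which Ly6d is also a gated antigen and Irf7 an interferon response gene. The summed level of the 18 genes of the list was 628 CPM in Ccr9+ and 545 in Ccr9- cells. Spib, Klk1 and Cd209d held 0 UMIs, and Irf8 and Tcf4, which direct this lineage, had ratios of 0.882 (0.682 to 1.14) and 1.09 (0.999 to 1.19). In the Flt3+ HSA+ sort 1 of 8 measured genes of this list was higher, Irf7. Of 12 measured interferon response genes 2 were higher, Irf7 and Ifi27l2a, with a median log2 ratio of 0.20. Of 4 measured conventional dendritic markers 1 was higher (Cd74), at summed levels of 425 and 407 CPM, and Xcr1 and Clec9a held 0 UMIs.

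Markers of other lineages were compared as whole lists, and their part in the results was not tested. Of 7 measured granulocyte and monocyte genes outside the cell filter, Cebpb (a ratio of 0.80, 0.651 to 0.983) and Fcer1g (0.799, 0.662 to 0.964) were lower, the median log2 ratio was -0.23, and the summed level was 474 CPM in Ccr9+ and 520 in Ccr9- cells. That median was -0.03 after thinning, 0.09 with classes also taken from the thinned cell and 0.06 in cells with no granule gene detected, and -0.51 without the filter on granule genes. Tyrobp, a signalling adaptor of myeloid and innate lymphoid cells, stood at 251 and 288 CPM, 1.24-fold lower (1.17 to 1.32). The 6 filter genes summed to 130 and 255 CPM, nearly all of it Mpo. Among mast cell and basophil genes only Cpa3 was measured, and Cma1, Fcer1a, Tpsb2 and Prss34 held 0 UMIs. Of 4 measured NK and innate lymphoid genes, Klrd1 (29.3 and 21.3 CPM) and Il18r1 were higher and Cd160 lower, at summed levels of 474 and 465 CPM, with Zbtb16, Ncr1, Eomes and Tbx21 at 0 UMIs.

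Erythroid and megakaryocyte genes summed to 228 CPM in Ccr9+ and 210 in Ccr9- cells, with Hba-a1, Hba-a2 and Epor at 0 UMIs. Most of this sum was Car2, at 169 CPM in Ccr9- cells. Car2 stood at 204, 209 and 274 CPM in cells with 1, 2 to 3, and 4 or more Ccr9 UMIs. The globin gene Hbb-bt went the other way, as described. B cell genes summed to 46.5 and 47.8 CPM, with Cd79a, Pax5, Igll1, Cd22 and Ms4a1 at 0 UMIs. Genes of gamma delta T cells summed to 22.8 and 22.7 CPM, those of later thymocytes to 24.5 and 23.5, with Cd8a and Ccr4 at 0 UMIs, and those of thymic stroma to 23.7 and 21.8, with Foxn1, Krt5, Krt8, Psmb11, Col1a1, Pdgfra and Cdh5 at 0 UMIs. In these last 4 lists none of the measured genes lay past the step, but few were measured. They were 1 B cell gene, 2 genes of gamma delta T cells, 1 of later thymocytes and 1 of thymic stroma.

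Proliferation and growth genes stood close to level over the 10 depth strata combined, but G2 and M phase genes did not within parts of the cells. With strata crossed by the number of G2 and M phase UMIs, 42 genes were past the size rule on the higher side and 22 on the lower. None of the 26 measured S phase genes, the 24 G2 and M phase genes or the 14 Myc-linked growth and nucleolar genes lay past the step, and the median log2 ratios were -0.03, 0.03 and -0.04. Without allowance for depth, G2 and M phase genes summed to 1773 CPM in Ccr9+ and 2191 in Ccr9- cells. Thinning to 3000 UMIs, which equals the counts but does not match cells of like total, gave medians of -0.11, -0.25 and -0.09 in the order above, and of -0.38, -0.63 and -0.30 with classes from the thinned cell. Within the 3 depth groups the median ratio of the G2 and M phase genes was 0.517 in the shallowest, with 3 of 24 genes above 1, 0.874 in the middle and 1.09 in the deepest, with 20 above 1. In the shallowest group Mki67, the Ki-67 antigen of cycling cells, had a ratio of 0.392 (0.262 to 0.585). Against cells with 0 Ccr9 UMIs the median was 0.922 with 1 UMI, 1.04 with 2 to 3 and 1.45 with 4 or more, with 23 of 24 above 1 in the last. The median and the share above 1 of all measured genes were not taken in these groups, so these values have no background. Set against a ratio of 1 alone, most of the G2 and M phase genes stood lower in shallow Ccr9+ cells and above it in the deepest group. Their part in the other results was not tested beyond the crossed strata. Of 13 immediate early and stress genes 1 was higher, Egr1, at 1.28-fold (0.999 to 1.64).

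Over the 18 other ways of choosing, weighting and scaling the cells, the median log2 ratio kept its side of 0 for 11 of 17 lists and changed side at least once for 6. It stayed between 0.10 and 0.23 for lymphoid priming, 0.17 and 0.42 for plasmacytoid dendritic markers, 0.09 and 0.17 for stem and progenitor regulators, and -0.11 and -0.02 for T-lineage regulators. The lists that changed side were thymus homing and adhesion (-0.15 to 0.04), conventional dendritic markers (-0.09 to 0.38), Notch receptors and targets (-0.11 to 0.26), the granulocyte and monocyte genes, and the S phase and G2 and M phase genes. Each list kept the members measured in the main comparison throughout, and changes of the low-value filter cannot move these medians.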

How the data were processed

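Single-cell RNA counts and hashtag counts of the same 8293 barcodes were used. The matrix holds UMI counts for 27998 genes, whole numbers that were not normalized, as the authors deposited them; reads were processed with Cell Ranger 3.0 and mm10, per the submitters' processing notes. Hashtag counts were used as the authors deposited them, per barcode and tag. No source used here says whether these are reads or UMIs, or by which rule the authors assigned cells to sorts. The assignment was used as deposited and 345 barcodes with no sort were left out of the comparison. Doublets were not called, so a droplet with 2 cells of 1 sort cannot be told from a deep cell.

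UMIs were summed per class, and each gene's Ccr9+ over Ccr9- ratio of UMI rates was combined over 10 strata of total UMIs (Mantel-Haenszel) with a 95% counting interval. CPM values carry exact Poisson intervals and shares exact Clopper-Pearson intervals, and shares were also taken after thinning each cell to 3000 UMIs (seed 20). No test was run, since each sort was made once. The procedure was tested on simulated data with known ratios, a depth effect and counting error only. Other spread between cells was not simulated, so that test does not cover it.

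Named genes were the 12 with the largest and the 12 with the smallest ratios past the size rule whose interval left out 1 and of whose UMIs in the higher class the 10 richest cells held under 50%; predicted genes, clone names and mitochondrial genes were counted but not named. List members, the neighbours of Ccr9 and genes marked as such were named too. Some values of single genes are not reported here. The 24 lists hold 344 genes, of which 332 were matched by symbol. The members, lists and rules were chosen with earlier results of these data known.

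Coordinates are from GENCODE M21 (27645 of 27998 identifiers matched) and promoters, found for all 4 genes sought, from RefSeq's GRCm38.p6 table. Alternatives changed the depth allowance, the Ccr9 threshold, the cell filter, the weights, the low-value filter and the scaling, with edgeR 4.0.16 TMM factors and DESeq2 1.42.0 size factors of the summed counts. Python 3.11.15, numpy 2.4.6, scipy 1.17.1, pandas 2.3.3 and R 4.3.3 were used.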

Additional observations from a re-analysis of the deposited data

Results flagged for a closer look

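Of 49 named or listed genes followed through the alternatives, Cd74 and Egr1 were at least 25% higher in the Ccr9+ cells of the Flt3+ Ly6d- HSA- sort and at least 20% lower in those of the Flt3+ HSA+ sort, and the difference between the sorts was not tested. Cd74, the invariant chain of MHC class II, had a ratio of Ccr9+ over Ccr9- cells of 1.55 (1.16 to 2.09) in Flt3+ Ly6d- HSA- cells and of 0.435 (0.339 to 0.559) in Flt3+ HSA+ cells, and the 10 richest cells held 65.3% of its UMIs in the Ccr9+ cells of the first sort. In the Flt3+ HSA+ sort 5 of 6 measured conventional dendritic markers (Cd74, H2-Aa, H2-Ab1, H2-Eb1 and Id2) were at least 20% lower in Ccr9+ cells, with a median log2 ratio of -0.98, against 4.48% of all genes measured there. In the Flt3+ Ly6d- HSA- sort 0 of 4 were, against 1.95% of all measured genes. The sets differ, since H2-Aa and H2-Eb1 were too low to be measured in that sort, at 0.597 and 0.531 CPM in Ccr9- cells. How much of these UMIs the richest cells of the Flt3+ HSA+ sort held is not given here. Egr1, an immediate early gene, had ratios of 1.28 (0.999 to 1.64) and 0.744 (0.504 to 1.10).

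Barcodes that the authors assigned to no sort were outside every comparison. Of 298 such barcodes that met the cell filter, 62 (20.8%, 16.3 to 25.9) held a Ccr9 UMI, at a median of 28573 UMIs per barcode, above the 2.14% of Flt3- Ly6d+ cells.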

How the results depend on the processing

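All alternatives were run on the same sort, and since each sort was made once none measures the spread between sorts. The 43 genes on the higher side and 21 on the lower side became 314 and 313 when cells were thinned to 3000 UMIs and classed at full depth, 794 and 868 when also classed by the thinned Ccr9 count, 129 and 60 with at least 2 Ccr9 UMIs against 0, 456 and 295 in the 246 cells with no granule gene detected, 86 and 37 with totals without mitochondrial and ribosomal protein genes, 15 and 9 at 20 CPM or more, and 1274 and 651 with no filter on low values. Thinned and smaller sets hold fewer UMIs per gene. Without the filter on granule genes 56 genes were lower and 61 higher. With no depth strata the counts were 59 and 26, and with TMM or DESeq2 factors 30 and 27. The Ccr9+ share of 30.5% became 10.2% after thinning. Of 879 values of 49 named or listed genes under 18 alternatives, 793 stayed within the spread set by counting, 72 moved beyond it in the same direction and 14 changed side. The changes of the low-value filter alter which genes are counted and not their ratios, so all 49 genes stayed there by construction. TMM and DESeq2 factors multiply every ratio by the same constant. With thinning and classes from full depth Fcer1g had a ratio of 1.33. With classes from the thinned cell the ratios were 0.774 for Ly96, 1.30 for Cd160, 0.957 for Itgb2, 0.731 for Thy1, 1.86 for Fcer1g, 1.61 for Ctsg and 0.954 for Hopx. With no granule gene detected they were 1.27 for Cd160, 1.15 for Chn2, 0.964 for Thy1, 1.39 for Gfi1b, 1.08 for Fcer1g and 0.868 for Klrd1. The cause of these changes of side was not tested. No paired analysis was possible because each sort was made once and the labels give no replicate numbers, so no replicate could be left out either. Depth limits genes near 10 CPM, which rest on about 60 UMIs in Ccr9+ cells.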
